A study of Homo sapiens with 2 samples.

Results

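Reads ending in a cyclic phosphate were examined between positions 1311 and 1851 (neither included) of 28S rRNA, the longest RNA in the large subunit of the ribosome. The cells were A549, a long-established line from a human lung carcinoma. The stretch covers 539 nt and about corresponds to the conserved part of domain II that follows expansion segment ES7L. Members were chosen by position alone: 488 of its 539 positions are listed in the counts, of 5047 positions listed for 18S and 28S rRNA together. The study compared 1 poly I:C library, from cells given this artificial double-stranded RNA at 1 µg/mL by transfection with Lipofectamine 2000 for 1 h, and 1 mock library, from cells given Lipofectamine without poly I:C. Both came from total RNA of the same line, to which an adapter was joined with RtcB, a ligase that accepts cyclic phosphate ends. Since each group is 1 library, differences could not be set against replicate spread or tested, so every interval below covers counting error only, and a difference described as higher or lower is one between these 2 libraries.

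Domain II of the large-subunit rRNA is part of the ancient core of the ribosome. It carries the A-site finger, a long helix that reaches towards the incoming tRNA, and the base of the stalk to which translation GTPases bind. Expansion segments such as ES7L are eukaryotic insertions that extend outward from this core. Double-stranded RNA activates the oligoadenylate synthetases, whose product switches on RNase L, an endoribonuclease that leaves cyclic phosphate ends. Other RNases and chemical hydrolysis leave such ends too, and the labels describe no library from cells lacking a nuclease, so no end is assigned to an enzyme.

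The listed reads summed to 3764202 in the poly I:C library and 3079346 in the mock library, of which 2471250 and 2357134 were on 28S rRNA. Counts were divided by these sums over both rRNAs, so a ratio of 1 means the same share of listed reads. Positions are printed as deposited, because the file does not say where numbering starts or which end of a fragment is counted. The last listed position of 28S rRNA is 5097, while the annotated 28S copies in RefSeq GRCh38.p14 are 5054 to 5077 nt long, so the numbering need not match any annotated copy. The stretch lies inside all of them, and its structural name cannot be checked from counts. Each position stands for all rRNA gene copies together and carries no genome coordinate.

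As a whole the stretch was less represented after poly I:C. It held 165892 reads in the poly I:C library and 192616 in the mock library, which is 4.41% (95% exact binomial interval 4.39 to 4.43) and 6.26% (6.23 to 6.28) of the listed reads. Poly I:C over mock, this is a ratio of 0.705 (95% counting interval 0.700 to 0.709). Unscaled, it was 0.861. The rest of 28S rRNA stood at 0.871 (0.870 to 0.873) and 18S rRNA at 1.46 (1.46 to 1.47). The equally long stretches of 28S rRNA on either side lay on opposite sides of 1: positions 773 to 1311, towards ES7L, had a ratio of 2.64 (2.61 to 2.67), and positions 1851 to 2389 had 0.642 (0.639 to 0.645).

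Beneath this sum lay 1 position that stood far above its mock level after poly I:C and a broad set that was lower. Position 1443 had 26229 poly I:C reads and 157 mock reads, a ratio of 137 (117 to 161). It supplied 15.8% of the stretch's poly I:C reads and 0.0815% of its mock reads. It was the second most frequent position of the stretch in the poly I:C library and the 168th in the mock library. In all of 28S rRNA it was the 14th most frequent in the poly I:C library and the 840th in the mock library, and its ratio ranked 15th among 1660 compared positions. Without position 1443 the ratio of the whole stretch was 0.594 (0.590 to 0.598).

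**Figure D1:**
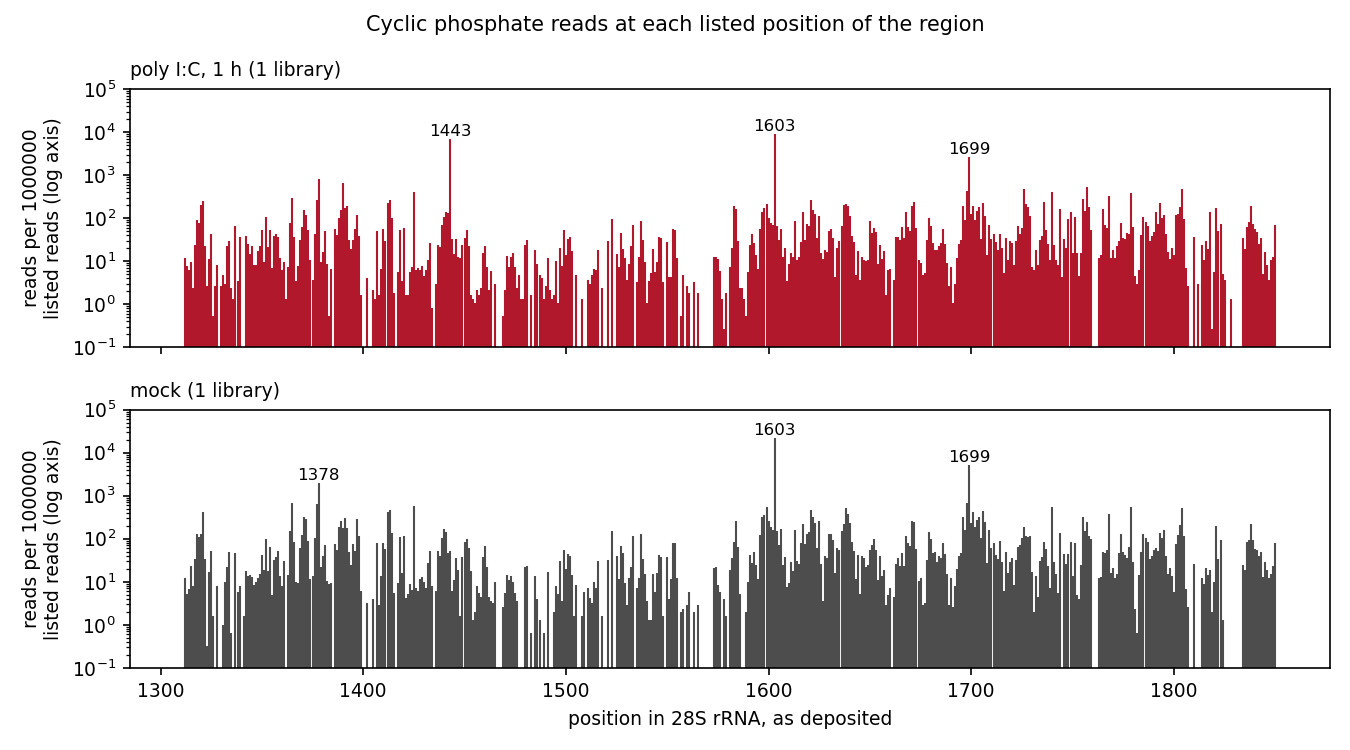
Reads per 1000000 listed reads (vertical, log axis) at each listed position of the stretch (horizontal), with the poly I:C library above and the mock library below; each line is 1 position and the 3 most frequent are labelled. Position 1443 stands out in the poly I:C library but not in the mock library, while 1603 and 1699 are leading positions of both.

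The signal at 1443 was narrow. Its neighbour 1442 had 484 poly I:C reads and 144 mock reads, a ratio of 2.75 (2.28 to 3.34), and 1444 had 120 and 19, a ratio of 5.17 (3.17 to 8.88). The larger neighbour thus held 1.85% as many poly I:C reads as 1443 itself. Position 1441 was near even at 532 poly I:C reads and 447 mock reads, a ratio of 0.974, and position 1440 was lower at 399 and 505, a ratio of 0.646. Summed over the 10 positions within 5 nt, 1443 left out, there were 2150 poly I:C reads and 1768 mock reads, a ratio of 0.995 (0.934 to 1.06). Position 1443 thus had a far larger ratio than any listed position within 5 nt, although 1442, 1444 and 1448 also had ratios above 2. Position 1448 had only 45 poly I:C reads and 5 mock reads, a ratio of 7.36 (2.93 to 23.8).

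The most frequent position of the stretch in both libraries behaved differently. Position 1603 had 34740 poly I:C reads and 68426 mock reads, a ratio of 0.415 (0.410 to 0.421). Scaled by the median ratio of all compared positions, 1603 stood at 0.515, and unscaled at 0.508, both above 0.5. It held 20.9% of the stretch's poly I:C reads and 35.5% of its mock reads, and ranked 12th and 6th among all 28S positions in the poly I:C and mock libraries. The 10 positions within 5 nt of it had 3084 poly I:C reads and 6001 mock reads, a ratio of 0.420 (0.402 to 0.439), which includes the ratio at 1603 itself in its interval. Relative to the peak, these neighbours held 8.88% of its reads in the poly I:C library and 8.77% in the mock library. The ratios of the peak and of its surroundings thus differed by less than counting error.

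**Figure D2:**
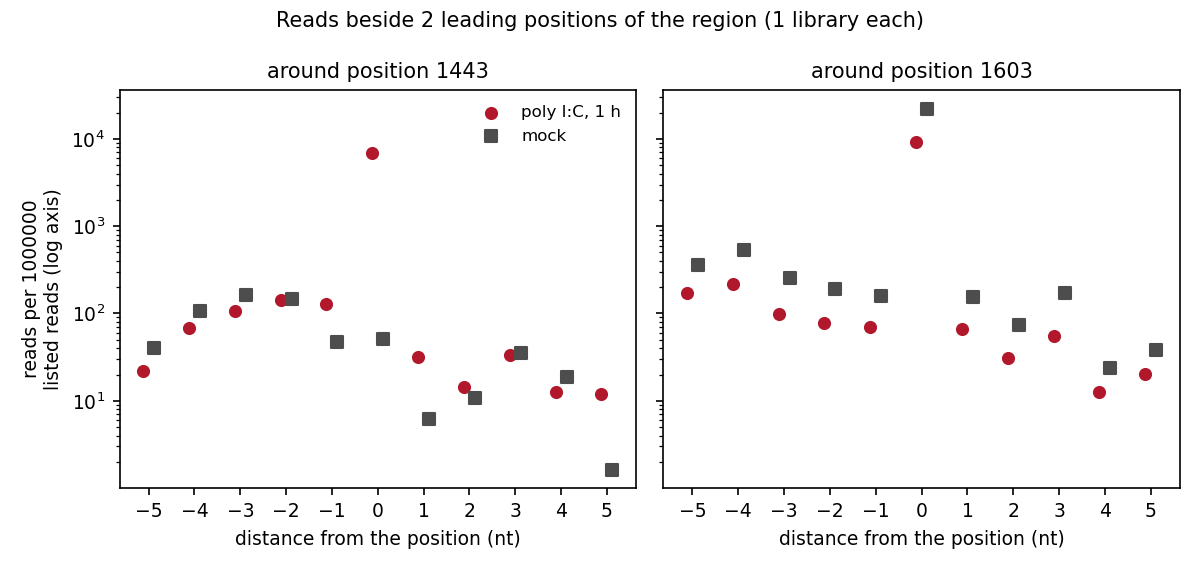
Reads per 1000000 listed reads (vertical, log axis) at distances of up to 5 nt (horizontal) from position 1443, left, and position 1603, right, with poly I:C as circles and mock as squares. At 1443 the libraries part at the central position, with ratios of 2.75 and 5.17 directly beside it and 7.36, on 45 poly I:C reads and 5 mock reads, at a distance of 5 nt; at 1603 every position shown is lower in the poly I:C library.

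Positions 1699 and 1378 were also lower together with their surroundings. Position 1699 had 10043 poly I:C reads and 15689 mock reads, a ratio of 0.524 (0.511 to 0.537), and its surroundings within 5 nt stood slightly higher, at 0.551 (0.532 to 0.570). Position 1378 had 3036 and 5932 reads, a ratio of 0.419 (0.401 to 0.437), with its surroundings at 0.440 (0.414 to 0.467). Position 1377, directly beside it, had 974 poly I:C reads and 2014 mock reads, a ratio of 0.396. Other positions among the 12 most frequent of the mock library were 1365 at 0.425 (0.394 to 0.457), 1599 at 0.409 (0.375 to 0.445) and 1638 at 0.412 (0.377 to 0.449). Scaled by the median ratio, 1378, 1365, 1599 and 1638 lay from 0.507 to 0.527, above 0.5. By contrast, 1804 was near even, with 1794 poly I:C reads and 1576 mock reads, a ratio of 0.931 (0.870 to 0.997). Scaled by the median ratio of all compared positions, 1804 stood above 1, at 1.15. Between these lay 1698 at 0.619, 1425 at 0.685, 1779 at 0.691 and 1740 at 0.762. Of the 12 most frequent positions of each library, 8 were the same.

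Reads were similarly concentrated in both libraries. The 10 most frequent positions of each library held 51.4% (51.2 to 51.7) of the stretch's poly I:C reads and 53.5% (53.3 to 53.7) of its mock reads. The poly I:C and mock lists had 5 of their 10 in common. Taken over all 488 members, log2-transformed reads per 1000000 plus 1 had a Pearson's r of 0.910 and a Spearman's rho of 0.937 between the poly I:C and mock libraries. These describe positions that share a molecule and 2 libraries, and carry no p.

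Ratios of single positions were compared where both libraries together had at least 100 reads, which left 299 of the 488 members. These held 97.6% of the stretch's poly I:C reads and 97.9% of its mock reads. Positions were called by size. A ratio of 2 or more was reached by 15 of the 299, or 5.02%, against 8.18% of all 2750 positions compared in the series. A ratio of 0.5 or less was reached by 64 of the 299, or 21.4%, against 10.1% of all compared positions. Any ratio above 1 was found at 70 of the 299, or 23.4%, against 32.6%. At least 10-fold higher was 1 member, position 1443, against 2.84% of all compared positions. At least 4-fold lower were 0 of the 299, against 4 of all 2750 compared positions, so this was rare in the whole series. The counting interval lay wholly at or above 2 for 10 of the 299, or 3.34%, against 5.82% of all compared positions, and wholly at or below 0.5 for 29 of the 299, or 9.70%, against 3.27%.

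The median ratio of the 299 members was 0.684, a log2 ratio of -0.55, against 0.807 and -0.31 over all compared positions. Scaled by the median ratio of all compared positions instead, the median log2 ratio of the stretch was -0.24 and that of all compared positions 0.0014, and 22 members were higher and 21 lower, against 11.6% and 3.27% of all compared positions. Higher members were then 51.2% of the stretch's calls, against 77.9% over all compared positions, while under the scaling to listed sums they were 19.0%, against 44.8%. Unscaled, higher members were 45.8% of the calls, against 74.7%, and scaled to 28S reads 31.7%, against 67.2%. The difference of -0.24 between the 2 medians is the same under any scaling that uses 1 factor per library. The stretch after it, from 1851 to 2389, had a median ratio of 0.658 over 158 compared positions, and the stretch before it 1.37 over 52.

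**Figure D3:**
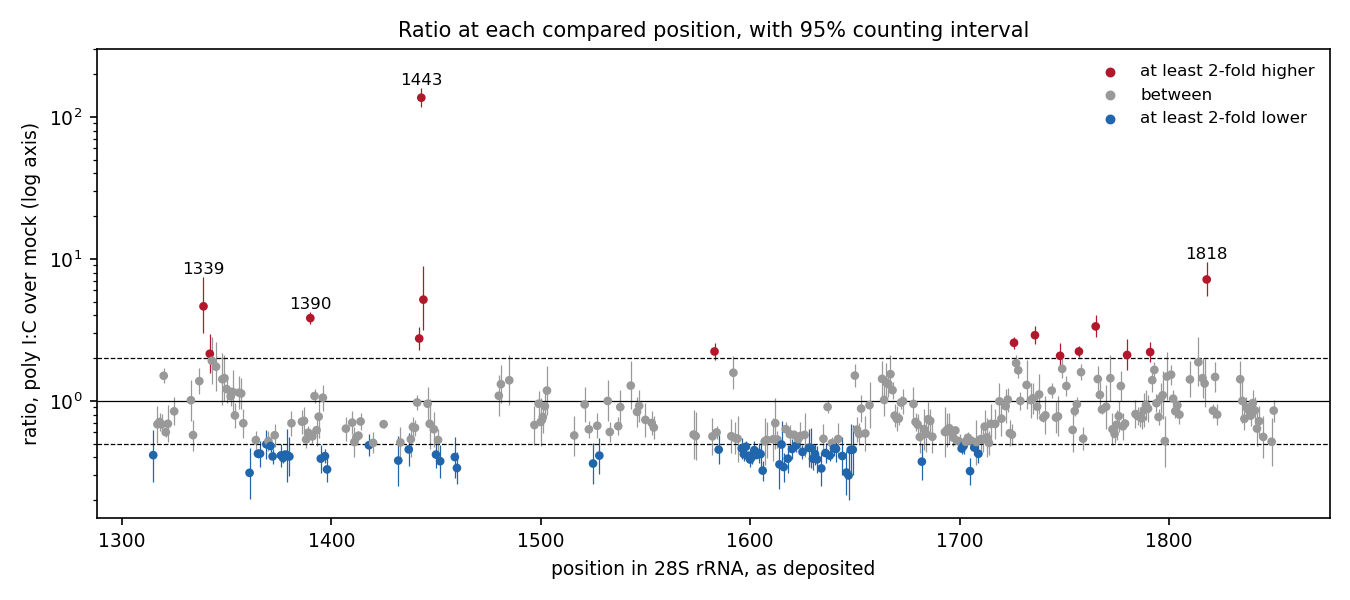
Ratio of poly I:C over mock (vertical, log axis) at the 299 compared positions (horizontal), with 95% counting intervals as lines and dashed lines at 2 and 0.5. The 15 higher positions fall into 9 clusters, among them the adjacent 1442, 1443 and 1444, the 64 lower ones lie mostly between 1360 and 1460 and between 1590 and 1711, and none of the lower ones lies after 1711.

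The 14 higher members other than 1443 were modest by comparison. Together they had 11077 poly I:C reads and 3247 mock reads, a ratio of 2.79 (2.68 to 2.90), and the highest of them was 1818, with 508 and 58 reads and a ratio of 7.17 (5.45 to 9.57). Grouped wherever they lay within 10 nt of each other, the 15 higher members made 9 clusters. All 15 had more unscaled reads in the poly I:C library. At these library sums a ratio of 2 or more implies this, so it was no separate check. Unscaled, 22 of the 299 compared members were at least 2-fold higher, against 307 of all 2750 compared positions, or 11.2%.

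Position 1390 was the most frequent of the higher members after 1443. It had 2495 poly I:C reads and 533 mock reads, a ratio of 3.83 (3.49 to 4.21), while its surroundings within 5 nt were lower at 3009 and 3762 reads, a ratio of 0.654 (0.623 to 0.687). Directly beside it, 1389 stood at 0.597 and 1391 at 0.562. Position 1818 also stood above its surroundings, which summed to 0.972 (0.900 to 1.05) but were mixed. Positions 1814 to 1817 and 1822 were above 1, from 1.21 to 1.87, and 1819 to 1821 and 1823 were below 1. Position 1339 had 136 poly I:C reads and 24 mock reads, a ratio of 4.64 (2.99 to 7.48), and its surroundings were also above 1, at 1.19 (1.05 to 1.34).

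Most of the remaining higher members lay after position 1711. There, 8 of 91 compared positions were higher, or 8.79%, near the 8.18% of all compared positions. Position 1726 had 1829 poly I:C reads and 583 mock reads, a ratio of 2.57 (2.34 to 2.82). Position 1757 had 2016 and 740, a ratio of 2.23 (2.05 to 2.43), and position 1736 had 894 and 252, a ratio of 2.90 (2.52 to 3.35). Both 1726 and 1757 were among the 12 most frequent positions of the poly I:C library and not of the mock library. Position 1765 had 626 and 153 reads, a ratio of 3.35 (2.80 to 4.02), and position 1791 had 518 and 192, a ratio of 2.21 (1.87 to 2.62). Position 1583, with 722 poly I:C reads and 265 mock reads, was the single higher member between 1562 and 1711, at 2.23 (1.93 to 2.58).

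The lower members were more numerous than the higher ones, and 0 of them lay after position 1711, where 8 of the higher ones did. The lower ones formed 11 clusters. All 64 had fewer unscaled reads in the poly I:C library. At these library sums a ratio of 0.5 or less implies this, so it was no separate check. Unscaled, 26 of the 299 compared members were at least 2-fold lower, against 3.78% of all compared positions. Scaled by the median ratio, 21 of the 299 were, against 3.27%. The 64 held 31.8% of the stretch's poly I:C reads and 53.7% of its mock reads. From 1596 to 1606 all 11 positions, each of them compared, had ratios of at most 0.5, from 0.323 to 0.475, with 38421 poly I:C reads and 75597 mock reads in all. Scaled by the median ratio, all 11 were below 1, from 0.400 to 0.589, and 2 of them were at most 0.5. From 1593 to 1649 all 50 compared positions were below 1 under the scaling to listed sums, with ratios from 0.298 to 0.906. Unscaled, position 1637 in this run was above 1, with 739 poly I:C reads and 667 mock reads. Both runs were picked as the longest of their kind in the stretch. Under the scaling to listed sums, 32.6% of all compared positions were above 1 and 10.1% were at most 0.5. The 8 lowest ratios of the 299 compared positions belonged to positions with 127 to 728 reads over both libraries. These ratios ran from 0.298 (0.201 to 0.434) at 1647, with 39 poly I:C reads and 107 mock reads, to 0.337 (0.259 to 0.435) at 1460. Of these 8, position 1606 had the most reads, 206 for poly I:C and 522 for mock, a ratio of 0.323 (0.273 to 0.380).

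In consecutive windows of 50 nt, 1 of 11 reached a ratio of 2 and 1 a ratio under 0.5, against 16.8% and 1.46% of the 137 windows of both rRNAs with at least 100 reads. Scaled by the median ratio or unscaled, 0 windows of the stretch were under 0.5. The higher one, from 1412 to 1461, had 33705 poly I:C reads and 9668 mock reads, a ratio of 2.85 (2.79 to 2.92). Position 1443 supplied 77.8% of its poly I:C reads, and without it the window was below 1, at 0.643 (0.624 to 0.663). The lower one, from 1562 to 1611, had 40849 and 78123 reads, a ratio of 0.428 (0.423 to 0.433). Position 1603 supplied 85.0% of its poly I:C reads and 87.6% of its mock reads, and without it the ratio was 0.515 (0.499 to 0.532). The next 2 windows stood at 0.526 (0.513 to 0.540) and 0.576 (0.566 to 0.585), and the 3 after these at 1.21 (1.18 to 1.24), 0.964 (0.940 to 0.988) and 0.958 (0.919 to 0.999). Of the windows before 1562, that from 1362 to 1411 was lowest at 0.571 (0.559 to 0.583), that from 1512 to 1561 stood at 0.703 (0.669 to 0.738), and the first, at 0.892 (0.859 to 0.927), and that from 1462 to 1511, at 0.953 (0.884 to 1.03), were nearest to 1.

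**Figure D4:**
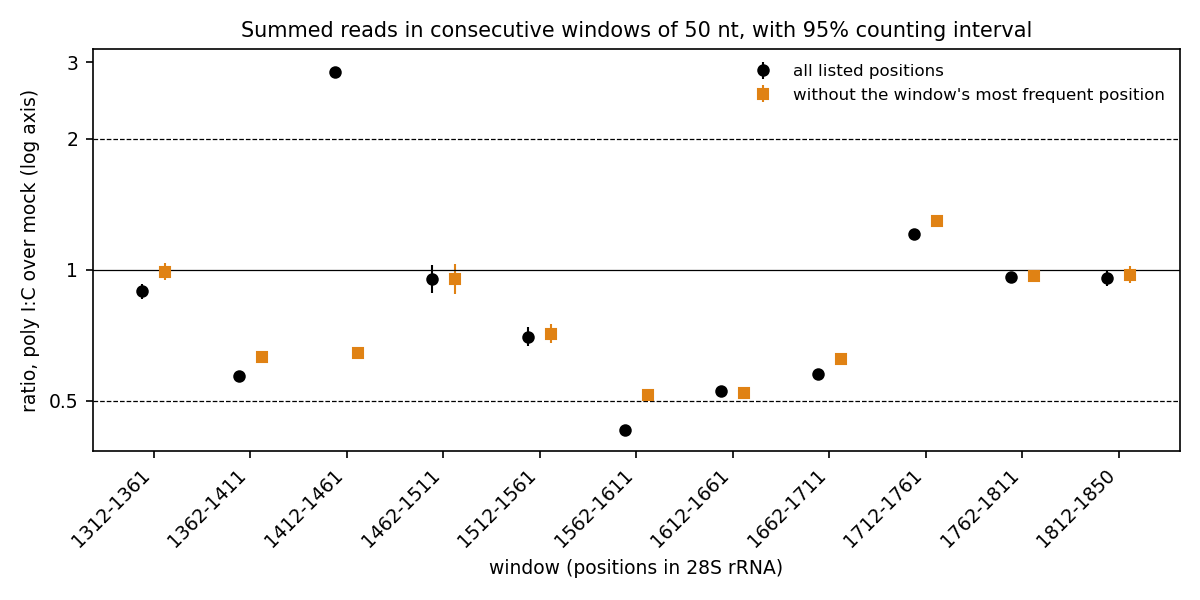
Ratio of poly I:C over mock (vertical, log axis) of reads summed in 11 consecutive windows (horizontal; 50 nt, the last 39 nt), with 95% counting intervals, for all listed positions (circles) and without each window's most frequent position (squares). Window 1412 to 1461 stands at 2.85 with all positions and at 0.643 without 1443, while the 3 windows from 1562 to 1711 lie between 0.428 and 0.576 with all positions and between 0.515 and 0.624 without the most frequent one.

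Joined into 4 segments, whose borders were chosen after the window values were seen, the stretch showed a change near position 1711. From 1562 to 1711, 40 of 104 compared positions, or 38.5%, were at least 2-fold lower and 1, or 0.962%, was higher, with a median ratio of 0.537. From 1712 to the end, 0 of 91 were at least 2-fold lower and 8, or 8.79%, were higher, with a median ratio of 0.911. Over all compared positions 10.1% were lower and 8.18% higher, so the share of higher positions after 1711 was near that of the series. The reads of these segments summed to 73576 in the poly I:C library and 125954 in the mock library before the border, a ratio of 0.478 (0.474 to 0.482), and to 33932 and 26178 after it, a ratio of 1.06 (1.04 to 1.08). Their quotient of 0.451 does not depend on the scaling, and it was 0.521 without position 1603. Scaled by the median ratio, 12 and 0 positions of these segments were lower and 1 and 13 higher. Over all compared positions, 3.27% were then lower and 11.6% higher.

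The first segment, which ends at 1461, was mixed. Of its 79 compared positions, 22, or 27.8%, were lower and 6, or 7.59%, were higher, against 10.1% and 8.18% of all compared positions. The median ratio was 0.637. The segment held 53885 poly I:C reads and 35703 mock reads, a ratio of 1.23 (1.22 to 1.25), which became 0.636 (0.627 to 0.647) without position 1443. The segment from 1462 to 1561 carried few reads, 4499 in the poly I:C library and 4781 in the mock library, although it is 100 nt long. Of its 25 compared positions 2, or 8%, were lower and 0 higher, with a median ratio of 0.769.

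**Figure D5:**
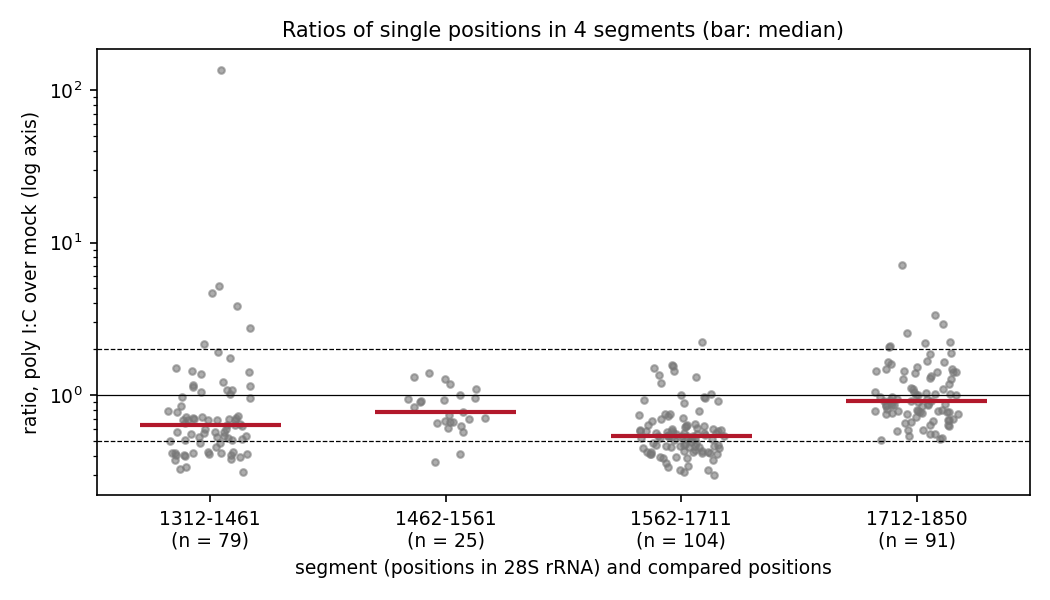
Ratio of poly I:C over mock (vertical, log axis) of single compared positions (points) in 4 consecutive segments (horizontal), with the median of each as a bar. The medians are 0.637, 0.769, 0.537 and 0.911, and position 1443, at 137, stands alone above the first segment.

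The remaining 189 listed members, under 100 reads each, had 3900 poly I:C reads and 4006 mock reads in all and were not compared singly. Of the 488 members, 19 had 0 mock reads, with at most 18 poly I:C reads, and 4 had 0 poly I:C reads, with at most 18 mock reads. Position 1477, with 18 poly I:C reads and 0 mock reads, had a ratio of 4.91 against a floor of 3 mock reads. Its 95% counting interval starts at 3.60. Another 51 positions of the stretch were not listed, and listed positions had at least 5 reads in 1 of the libraries. Precision followed depth: the upper bound of the counting interval was 2.08 times its lower bound at the median member with 100 to under 200 reads, and 1.23 times at the median member with 1000 reads or more. Among the 59 members of this deepest class, 17, or 28.8%, were lower and 5, or 8.47%, were higher, against 7.60% and 12.1% of all 605 positions of that depth. Their median ratio was 0.599, against 0.821.

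At the borders of the stretch, the first position inside had 45 poly I:C reads and 38 mock reads, and 1311, just outside, had 5 and 5. At the other border, the last position inside had 260 poly I:C reads and 249 mock reads, and 1851, just outside, had 42 and 78.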

How the data were processed

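For each library the deposited table gives raw read counts at 18S and 28S rRNA positions, without normalisation or pooling, per the file headers. Of the upstream steps, hg19 is named as a build in the submitters' processing notes; aligner, counting method and rRNA reference were not given in the sources consulted. No molecular identifiers are described, so amplified reads are not independent molecules and intervals may be too narrow.

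Counts of each library were scaled to its sum over all listed 18S and 28S reads. Ratio intervals are exact conditional binomial (Clopper-Pearson) intervals for a pair of Poisson counts, at 95%; shares carry exact binomial intervals. A library with 0 reads was set at a floor of 3 reads. Python 3.11.15 with numpy 2.4.6, scipy 1.17.1 and pandas 2.3.3 was used, and the ratio and interval were tested on simulated counts. No test was run between conditions, since each has 1 library.

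Named positions are, within the stretch, each library's 12 most frequent, the 12 highest and 8 lowest ratios among those compared, and the most frequent position of each 50 nt window; others were named as neighbours of these, at the borders or, for 1477, after their values were seen. The stretch, lists and rules were chosen with earlier results of these data known. Alternatives were 5 other scalings, other read minimums, thresholds, window sizes and borders, and sums over neighbours. Sequence around the positions was not analysed here.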

Additional observations from a re-analysis of the deposited data

How the results depend on the processing

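The ratio of the whole stretch stayed below 1 under every alternative tried: 0.874 scaled by the median ratio, 0.821 to 28S reads, 0.691 to reads outside the stretch, 0.726 without the most frequent positions, 0.861 unscaled, 0.698 with 20 nt added at each end and 0.864 without position 1603. Added after seeing the data, it was 0.594 without position 1443 and 0.692 without both. Scaled by the median ratio, to 28S reads and unscaled, lower positions numbered 21, 41 and 26 of 299. Of all compared positions, 3.27%, 5.02% and 3.78% were then lower. The median log2 ratio was -0.24, -0.33 and -0.26, against 0.0014, -0.088 and -0.019 over all compared positions. Positions above 1 numbered 70 of 299 in the main setting, against 108 by the median ratio and 107 unscaled. Higher and lower positions numbered 27 and 100 of 436 at a minimum of 20 reads and 5 and 17 of 59 at 1000. With no minimum they numbered 43 and 113 of 488, since the number of positions compared changes. At 1000 reads, 12.1% of all compared positions were higher and 7.60% lower. A 4-fold rule left 4 higher and 0 lower of 299. Shares over all positions were not worked out for the other minimums or for 4-fold higher positions. An interval wholly beyond 2-fold left 29 lower positions, or 9.70%, against 3.27% of all compared positions. The median log2 ratio was -0.74 at 1000 reads and -0.44 with neighbours summed. Lower windows numbered 0 by the median ratio, 0 unscaled and 3 with windows of 25 nt. The 5 most frequent positions held 46.1% (poly I:C) and 48.9% (mock) of the reads, and 10 sums of neighbours 58.5% and 61.2%. Of 37 named positions, 26 passed the 2-fold rule, many of them named because their ratios were among the highest or lowest. Under 5 scalings 0 of these 26 changed direction. The scalings multiplied every ratio by 0.981 to 1.24, so a ratio called by the 2-fold rule could not cross 1. The 0 was thus no separate check. Of the 37, 5 changed their call and 3 uncalled ones turned. For shifts given without a cause, the cause was not tested. The planned shares of nucleotides were not run. No paired analysis was possible because there is 1 library per group, which also leaves no replicate to omit.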
